A study of Homo sapiens with 6 samples.

Results

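SMAD4 and p300 shared 10333 binding sites in 786-O cells, and 1375 of these sites were touched by no DPF3a peak. The 1375 sites were chosen from the peak lists themselves. Each is a SMAD4 peak that overlapped a p300 peak by at least 0.5 of both peaks and overlapped no DPF3a peak by even 1 bp. The number is therefore a description and was not tested. It makes up 2.97% of the 46367 SMAD4 peaks, which is the background share of the rule (2.97%), with a 95% Wilson interval of 2.81 to 3.12%. Of the 1375 sites, 1131 were promoter sites, with the SMAD4 summit within 1000 bp of a GENCODE transcript start, and 244 were distal. In the text below, sites without DPF3a are these 1375 sites, and sites with DPF3a are the other 8958 SMAD4-p300 sites.

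The libraries were made by chromatin immunoprecipitation and sequencing (ChIP-seq) in 786-O, a long-kept human line of clear cell kidney cancer that lacks functional VHL. HA-DPF3a, SMAD4 and p300 had 2 replicate libraries each, and both replicates of a factor went into 1 peak list of 51530, 46367 and 20380 peaks. HA-DPF3a was pulled down through its tag in cells that overexpressed it, after fixation with a protein crosslinker and formaldehyde, and SMAD4 and p300 were pulled down with antibodies to the endogenous proteins after fixation with formaldehyde only. It is not stated in the labels if the cells of the SMAD4 and p300 libraries carried the DPF3a transgene or received TGF-β. With 1 list per factor no spread between replicates can be given, sites are not replicates, and all intervals cover counting error only. The lowest local background, which is the genome-wide level of a library, was 1.17 reads in the DPF3a list, 2.25 in the SMAD4 list and 2.05 in the p300 list, and it corresponds to a depth of about 15.8, 30.4 and 27.6 M reads. Of the renal genes checked, PAX8 had 2 SMAD4 and 2 DPF3a promoter peaks, PAX2 had 1 of each, CCND1 had 2 SMAD4 and 2 p300 peaks, EPAS1 had 1 SMAD4 peak, and LHX1 and CA9 had none. The promoters of PTPRC, ALB, CDH5 and MYOD1, which mark blood, liver, endothelium and muscle, held no peak of any list. None of these 10 genes had a site without DPF3a.

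SMAD4 is the partner that receptor-activated SMADs of the TGF-β and BMP pathways take up on their way to the nucleus. It binds short GC-rich or CAGAC elements weakly and is known to be placed by other factors, among them AP-1 at enhancers. p300 acetylates histones at active promoters and enhancers. DPF3a carries no catalytic activity of its own and belongs to SWI/SNF, which slides and evicts nucleosomes and is known for its place at enhancers with AP-1. CpG islands are the stretches at which most housekeeping promoters lie.

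Example sequences are shown first. All are from hg38 and read 5′ to 3′ with the matched motif in capitals. AP-1, the dimer of FOS and JUN proteins, was searched as TGACTCA or TGAGTCA on both strands. It is shown because it was rare at distal sites without DPF3a (7 of 244). Examples lie between genes near LMAN1 (chr18:59402548-59402594, plus strand, 19 SMAD4 reads) and in FHAD1 (chr1:15272664-15272710, plus strand, 33 SMAD4 reads).
LMAN1 distal site: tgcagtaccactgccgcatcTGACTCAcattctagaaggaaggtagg
FHAD1 distal site: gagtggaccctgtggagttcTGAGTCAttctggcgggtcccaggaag

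A distal site with DPF3a near MEOX2 (chr7:15643512-15643558, plus strand) is given for comparison, the one of highest rank that holds the same letters.
MEOX2 distal site, with DPF3a: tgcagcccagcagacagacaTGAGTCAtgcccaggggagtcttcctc

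The core of CTCF, the factor that anchors chromatin loops, is shown because it was more frequent at distal sites without DPF3a than at those with it (8 of 244 against 7 of 3376). Examples, both of low SMAD4 height, lie in LRGUK (chr7:134141441-134141478, minus strand, 15 SMAD4 reads) and in TXNDC11 (chr16:11714749-11714786, minus strand, 16 SMAD4 reads).
LRGUK distal site: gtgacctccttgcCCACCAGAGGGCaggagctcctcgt
TXNDC11 distal site: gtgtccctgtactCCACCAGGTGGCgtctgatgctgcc

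The letters AAGATGGCG are bound by YY1 just around the start of many housekeeping genes. They were in 26 of 1131 promoter sites without DPF3a (2.3%), close to the 2.23% of all canonical starts of protein-coding genes. The interval of the difference from sites with DPF3a held 0 (-0.105 to 3.13 points). Examples are GTF2B (chr1:88891484-88891512, minus strand), ELP4 (chr11:31509772-31509800, plus strand), MRPS30 (chr5:44808950-44808978, plus strand) and RPS15A (chr16:18790309-18790337, plus strand).
GTF2B promoter: agtcgccgtgAAGATGGCGtctaccagcc
ELP4 promoter: tggaggctctAAGATGGCGgcagtggcaa
MRPS30 promoter: atcgcgggcaAAGATGGCGgcggccaggt
RPS15A promoter: ccggcgcggaAAGATGGCGgaaagaggac

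Replication-dependent histones, which are transcribed in S phase, are shown because more of their genes had a site without DPF3a than with it (10 and 2 of 74 genes). The 120 bases before the start of H3C1 (chr6:26020331-26020450, plus strand), H3C10 (chr6:27809931-27810050, plus strand), H3C11 (chr6:27872347-27872466, minus strand) and H4C9 (chr6:27139162-27139281, plus strand) are printed with the NFY letters (CCAAT followed by C or G and then A or G, either strand) and TATAAA in capitals. The first 3 were chosen, after the sequences were seen, because they hold both, and H4C9 because it holds neither. Of 9 such histone promoters 8 held the NFY letters and 4 held TATAAA on either strand. At 20007 protein-coding genes the same stretch held them in 15% and 6.08% of cases. Histone genes without such a site were not compared, so these shares describe histone promoters. The SMAD4 summits of the 4 genes printed lay 97 to 164 bp downstream of the start, outside the 120 bases.
H3C1 promoter: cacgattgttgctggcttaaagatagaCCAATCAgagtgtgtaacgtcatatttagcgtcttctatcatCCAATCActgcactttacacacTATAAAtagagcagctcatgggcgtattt
H3C10 promoter: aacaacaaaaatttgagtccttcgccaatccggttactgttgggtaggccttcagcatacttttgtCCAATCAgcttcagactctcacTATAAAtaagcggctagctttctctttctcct
H3C11 promoter: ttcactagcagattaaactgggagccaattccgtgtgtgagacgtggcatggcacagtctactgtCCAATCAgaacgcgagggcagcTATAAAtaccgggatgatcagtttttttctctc
H4C9 promoter: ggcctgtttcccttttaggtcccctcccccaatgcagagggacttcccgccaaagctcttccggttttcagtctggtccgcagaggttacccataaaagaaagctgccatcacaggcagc

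Sites without DPF3a lay at promoters more often than SMAD4-p300 sites with DPF3a. Of the 1375 sites 82.3% were promoter sites (80.1 to 84.2%), compared with 62.3% (61.3 to 63.3%) of the 8958 sites with DPF3a. The difference was 19.9 percentage points with a Newcombe interval of 15.9 to 23.5 at an error level of 0.1%, and a difference is called here where this interval leaves out 0. Among 20540 SMAD4 peaks that shared at least 0.5 of both peaks with a DPF3a peak and touched no p300 peak the share was 16.7%, and among 9693 SMAD4 peaks with neither factor it was 34.6%. The remaining 5801 SMAD4 peaks overlapped p300 or DPF3a by less than these classes ask for, with 43.8% at promoters, and were not compared further. Promoter sites without and with DPF3a were close in the other measures of position. Of them 69.9% and 66.4%, respectively, had the summit within 100 bp of the start (difference 3.55 points, interval -1.54 to 8.32). Starts on both strands lay within 1000 bp of the summit in 32.7% and 36.2% (-3.44, -8.34 to 1.74). The nearest start was that of a protein-coding gene in 86.7% and 84.4% (2.36, -1.62 to 5.77). These intervals hold 0, which does not show that the classes are equal.

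Promoter sites without DPF3a were CpG islands in 1022 of 1131 cases, counting a site as CpG-rich where 500 bp around the summit had at least 50% GC and an observed over expected CpG ratio of at least 0.6. The share of 90.4% (88.5 to 91.9%) compares with 88.5% at promoter sites with DPF3a, a difference of 1.85 points whose interval holds 0 (-1.70 to 4.76), and with 64.1% at promoter peaks of SMAD4 alone. This comparison depended on the threshold: with a ratio of at least 0.75 the shares were 68.8% and 75%, a difference of -6.24 points (-11.3 to -1.48). At distal sites the classes did differ. Of 244 distal sites without DPF3a 56 were CpG-rich (23%, 18.1 to 28.6%), compared with 7.67% of the 3376 distal sites with DPF3a (difference 15.3 points, 7.51 to 25.3) and 7.74% of distal peaks of SMAD4 alone. The median distance of the distal sites without DPF3a to the nearest transcript start was 8167 bp, and 67.2% lay over 5000 bp from any start. A protein-coding gene held 47.5% of them, compared with 48.9% of distal sites with DPF3a (difference -1.39 points, -12.0 to 9.38).

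**Figure D1:**
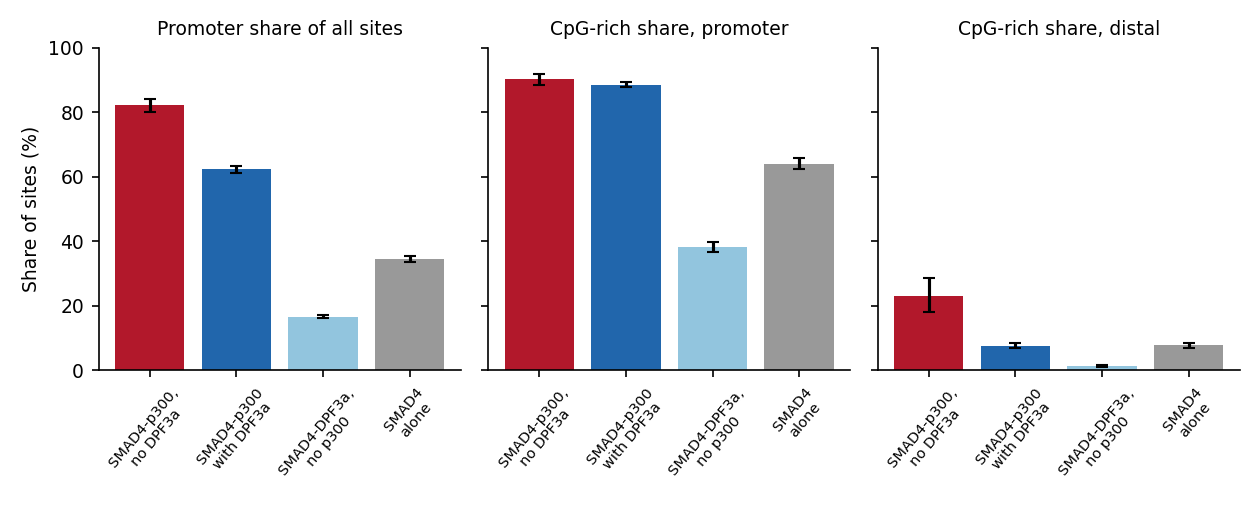
Share of sites in percent, for 4 classes of SMAD4 peaks: at promoters (left panel), and CpG-rich among promoter sites (middle) and distal sites (right). Bars are shares and whiskers 95% Wilson intervals of counting error. Sites without DPF3a reach 82.3% at promoters and 23% CpG-rich at distal sites, the highest bar in each of these panels, while the middle panel has 90.4% beside 88.5%.

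A SMAD4-p300 site was the more likely to lack DPF3a the lower its SMAD4 peak. This is a description, since peak strength takes part in calling the peaks that chose the sites. Over 4 classes of equal size from the lowest to the highest SMAD4 fold enrichment, the ratio of summit reads to local background, the share without DPF3a went from 26.1% over 13.4% and 9.53% to 4.18%. At promoters it was 52.7% for sites of up to 30 SMAD4 reads (157 of 298), 32.1% from over 30 to 60 reads, 11.4% from over 60 to 100 reads and 3.43% above 100 reads. At distal sites it was lower in each of these classes, with 23% up to 30 reads (140 of 610), 7.34%, 1.58% and 0.577%. So 16.8% of the 6713 promoter sites and 6.74% of the 3620 distal sites of SMAD4 and p300 had no DPF3a peak.

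**Figure D2:**
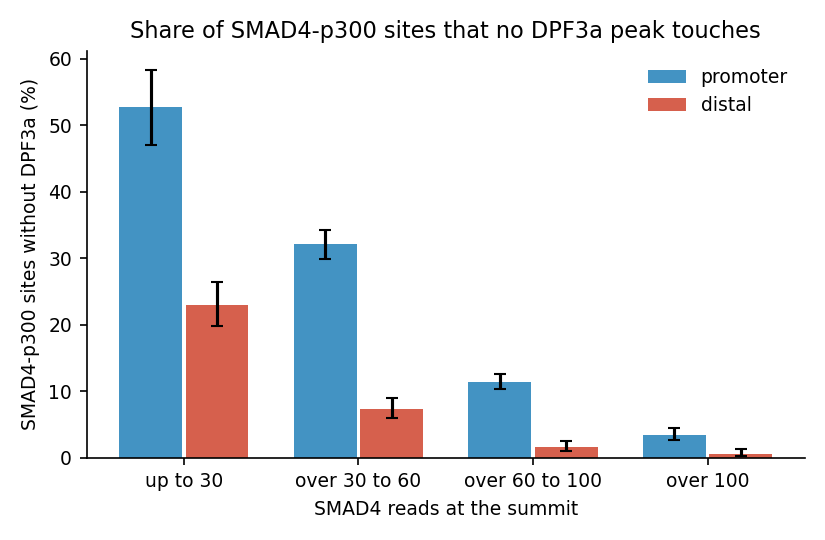
Percent of SMAD4-p300 sites that no DPF3a peak touches, by the number of SMAD4 reads at the summit, for promoter (blue) and distal (red) sites, with 95% Wilson intervals of counting error as whiskers. The bars go from 52.7% to 3.43% at promoters and from 23% to 0.577% at distal sites, and the distal bar is the lower one in each class.

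In the middle of the range, promoter sites without DPF3a had a SMAD4 fold enrichment of 7.32 (quartiles 5.86 to 8.69, 52 reads at the median) and a p300 fold enrichment of 4.82 (4.22 to 5.43, 24 reads). For promoter sites with DPF3a these medians were 8.80 (80 reads) and 4.91 (29 reads). Distal sites without DPF3a had a SMAD4 median of 5.28 (4.38 to 6.57, 27.5 reads), compared with 8.54 (66 reads) at distal sites with DPF3a, and p300 medians of 4.72 and 4.70. So the SMAD4 peak was the lower one, and p300 medians lay close together on the scale of fold enrichment. SMAD4 and p300 summits were a median of 119 bp apart at promoter sites and 72 bp apart at distal sites without DPF3a. The nearest DPF3a peak was a median of 11904 bp away from promoter sites and 9385 bp from distal sites, and 155 of the 1375 sites had one within 1000 bp. Just inside the rule was a site with DPF3a 21 bp away and just outside it a site with 16 bp of overlap, and the smallest shared part of a SMAD4 and a p300 peak was 50% inside and the largest 49.9% outside.

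The promoter sites without DPF3a that stood highest were CpG-rich or in coding exons, and the highest distal ones lay in coding exons or intergenic sequence. Sites were ranked by the product of the percentile ranks of SMAD4 and p300 fold enrichment among all peaks of each list, scaled to 100 at most. Most of the 10 promoter sites of highest rank are given here. DCP1B (chr12:2003993-2004730), a factor of mRNA decapping, had a SMAD4 fold enrichment of 12.7 (89 reads) and a p300 fold enrichment of 8.38 (27 reads). GTF2B (chr1:88891211-88891940), the general transcription factor TFIIB, had 13 (99 reads) and 7.76 (35 reads), with no DPF3a peak for 100252 bp. ENOX2 (chrX:130902726-130903576) had a SMAD4 fold enrichment of 12.9, DCDC1 (chr11:31369451-31370149), which shares its site with DNAJC24 on the other strand, had 11.6, and LGMN (chr14:92748185-92748943), a lysosomal protease, had 11.9. UFL1-AS1 (chr6:96521431-96522214) had 12.8 and SLC7A5P1 (chr16:29613288-29613860) had 11.7. The latter is a copy of another gene, where reads may be missing or placed with less certainty. The lncRNA gene ENSG00000289225 on chromosome 8, with 12.1, and a coding exon of FBXW7 were also among them.

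Coding exons far from a canonical start held 19 of the 1375 sites, in 16 genes. At distal sites the share was 5.74% (14 of 244, 3.45 to 9.40%) compared with 1.48% of distal sites with DPF3a (difference 4.26 points, 0.878 to 11.3) and 2.56% of distal peaks of SMAD4 alone (difference 3.18, -0.168 to 10.2). Their median SMAD4 fold enrichment was 9.85, from 3.07 to 20.8, compared with 5.24 at the other distal sites without DPF3a. Of the 14 distal sites with a SMAD4 fold enrichment over 10, 6 were in such exons. BRAF, coding for a kinase of the RAS pathway, had a site in coding exon 15 on chromosome 7 with a SMAD4 fold enrichment of 20.8 (123 reads) and a p300 fold enrichment of 9.05 (35 reads). ROS1, a receptor tyrosine kinase, had a site in coding exon 41 (chr6:117309877-117310377) with 18.1 (72 reads) and 7.32 (22 reads). FBXW7, the substrate receptor of a ubiquitin ligase, had sites in coding exons 11 and 12, with SMAD4 fold enrichments of 13.1 and 17.7.

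MAP2K1 coding exon 3 had a SMAD4 fold enrichment of 16.9, ALK coding exon 25 had 14.2, and PIK3CA coding exon 21 had 11.8. RB1, ATM, DDR2, NRAS, EVX2, BMP2, ACP4 and SMURF1 had such sites as well. The exons had a median GC content of 40.9%, compared with a median of 54.5% over all distal sites without DPF3a, and no DPF3a peak touched them, at distances from 3430 bp to 130653 bp. What gives these exons reads of 2 libraries was not tested. The coding exons were looked at as a class with the earlier results of these data known, and without these 19 there were 1356 sites, and the AP-1 difference given below was -19.3 points (-22.5 to -12.5).

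**Figure D3:**
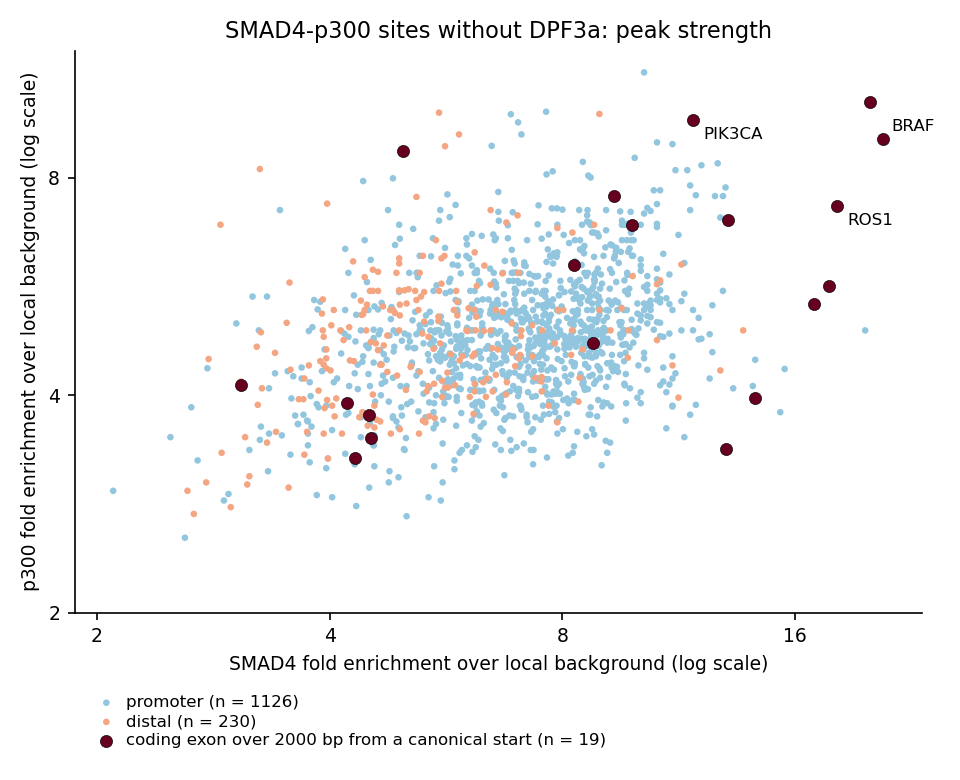
Fold enrichment of the p300 peak against that of the SMAD4 peak on log scales for the 1375 SMAD4-p300 sites without DPF3a, 1 point per site, for promoter sites, distal sites and coding exons over 2000 bp from a canonical start. Coding exons of BRAF (20.8 and 9.05) and ROS1 (18.1 and 7.32) lie at the upper right, outside the cloud of the other sites.

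The distal sites of highest rank outside coding exons lay in intergenic sequence. STC2, a secreted glycoprotein, was the nearest protein-coding gene to a site 40349 bp away (chr5:173283743-173284169) with a SMAD4 fold enrichment of 11.4 (50 reads). Sites near LRIG1 (chr3:66582729-66583056), an inhibitor of receptor tyrosine kinases, XPO7 on chromosome 8 and GOLGA6B (chr15:72670693-72671236), a member of a family of near-identical copies, had SMAD4 fold enrichments of 10.7, 10.6 and 8.93.

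AP-1 letters were rare at SMAD4 summits without DPF3a. Of 244 distal sites 7 held TGACTCA or TGAGTCA within 50 bp of the summit (2.87%, 1.40 to 5.80%), compared with 750 of 3376 distal sites with DPF3a (22.2%, 20.8 to 23.6%). The difference was -19.3 percentage points (-22.5 to -12.9). Its size moved with the window, with -31.3 points (7.38% and 38.7%) within 100 bp of the summit and -11.5 points (1.23% and 12.7%) around the p300 summit. Distal peaks with DPF3a and no p300 held it in 23.6% of cases and distal peaks of SMAD4 alone in 9.29%, from which the sites without DPF3a also differed (difference -6.42, -8.77 to -0.332). In 2 flanks of the same total length 500 bp from the summit, 0.820% of the distal sites without DPF3a held it, so that their summit share was 2.05 points above the flanks, with an interval that holds 0 (-3.22 to 8.07). At distal sites of SMAD4 alone the same excess was 7.81 points (6.53 to 9.15).

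The low AP-1 share was also seen within a common range of SMAD4 height, inside which heights were not matched. With both classes kept to the quartiles of SMAD4 reads of the distal sites without DPF3a, the shares were 3.10% of 129 and 20.03% of 719 sites (difference -16.9, -22.8 to -6.28), and among distal sites that are not CpG-rich the difference was -19.9 points (-23.5 to -11.9). At promoter sites the letters were found in 4 of 1131 cases without DPF3a (0.354%), compared with 3.10% with DPF3a (difference -2.75, -3.65 to -1.35) and 1.09% of the windows at 20046 canonical starts of protein-coding genes. Those 4 promoter sites were at FAM111B, MMP13, RIN2 and FOSL1. MMP13 (chr11:102955564-102955931), a collagenase, had a SMAD4 fold enrichment of 5.40 (26 reads) with the summit 8 bp upstream of the start. FOSL1, which codes for the AP-1 subunit FRA1, had a site 993 bp inside the gene with a fold enrichment of 3.33 (89 reads), 401 bp from a DPF3a peak.

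Of 32 motifs compared at promoter and at distal sites, 4 of the 64 differences from sites with DPF3a left out 0, and AP-1 gave 2 of them. The letters GGAATG, the core of TEAD sites, were in 5.33% of distal sites without DPF3a and in 12.7% of those with it (difference -7.38 points, -11.1 to -0.255), and the flanks of the former held them as often as the summits, 5.33%. The interval of this difference held 0 under 4 of 6 other choices of window or sites. CTCF had the opposite direction, with 3.28% (8 of 244, 1.67 to 6.34%) of distal sites without DPF3a and 0.207% (7 of 3376) of those with it (difference 3.07 points, 0.835 to 9.23). Distal peaks of SMAD4 alone held CTCF letters in 2.02% (128 of 6340), and the interval of the difference held 0 (1.26, -1.03 to 7.44). The 8 CTCF sites, of which those near LRGUK, TXNDC11, IL17B, RAB17, BMP7, ZDHHC7 and WDR5 are named here, had SMAD4 fold enrichments from 4.08 to 8.24 and the nearest DPF3a peak 1478 to 50062 bp away. BMP7, a BMP ligand, had its site 81277 bp downstream of its start, with 15 SMAD4 and 23 p300 reads.

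**Figure D4:**
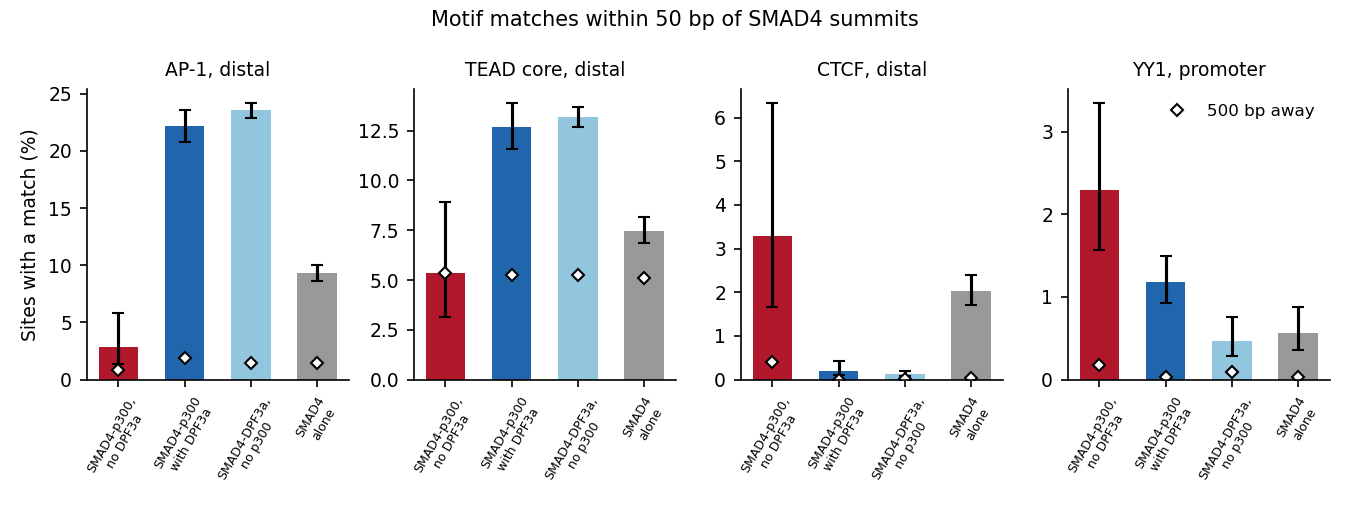
Percent of sites with a motif match within 50 bp of the SMAD4 summit, for AP-1, the TEAD core and CTCF at distal sites and YY1 at promoter sites, in 4 classes of SMAD4 peaks. Bars are shares, whiskers 95% Wilson intervals of counting error and diamonds the shares in flanks 500 bp away. In sites without DPF3a (dark red) AP-1 stands at 2.87% beside 22.2%, and CTCF at 3.28% beside 0.207%.

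For 3 SMAD elements the intervals of the differences between sites without and with DPF3a held 0, which does not show that the shares are equal. CAGACAG was in 2.12% of promoter sites and 4.92% of distal sites without DPF3a, compared with 1.83% and 4.59% with it (differences 0.295 points, -0.938 to 2.29, and 0.327 points, -2.90 to 7.17). GGCGCC was in 13% and 6.56%, compared with 14.6% and 3.05% (-1.60 points, -4.96 to 2.33, and 3.51 points, -0.249 to 10.8). It was less frequent at SMAD4-DPF3a peaks without p300, with 8.60% at promoters (difference 4.40 points, 0.994 to 8.32) and 1.16% at distal sites (5.39 points, 1.8 to 12.7). Of all canonical starts, 1.98% held CAGACAG and 12.3% held GGCGCC, close to the promoter sites without DPF3a. GTCTAGAC was in 2 promoter sites and in none of 244 distal sites, which allows a share of up to 1.55%. YY1 letters were in 26 of 1131 promoter sites without DPF3a (2.3%, 1.57 to 3.35%) and in 1.18% of those with it, a difference of 1.12 points whose interval holds 0 (-0.105 to 3.13). Promoter peaks of SMAD4 alone held them in 0.567% (difference 1.73, 0.494 to 3.73), and 2.23% of all canonical starts did. In 21 of the 26 sites the letters were on the strand of the gene, compared with 56 of 66 sites with DPF3a, and the median position of the first letter was 1 bp downstream of the start. Their genes include BRAF, SCFD1, UBR1, SNX1 and SUPT5H. ETS letters (CCGGAAGT), which mark many housekeeping promoters, were in 1.86% of promoter sites without DPF3a and 1.90% with it. NFY letters were in 5.22% and 4.48%. All canonical starts held ETS letters in 3.93% and NFY letters in 4.43% of cases.

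Promoters of 1226 of 20020 protein-coding genes held a site without DPF3a, which is 6.12% of all genes and the background for the groups below. Sites with DPF3a were at the promoters of 5736 genes (28.7%), and 97 genes had both. Of the list genes named below, PCNA, POLD3, RPL6 and MMP16 were among those with both. The 6.12% counts all genes, of which 12536 had some SMAD4 promoter peak. Most lists had one at a larger share of genes, among them 74 of 78 mitochondrial ribosomal proteins and 42 of 43 DNA replication genes. A share above 6.12% is not particular to sites without DPF3a where the share with DPF3a is also above 28.7%. Groups are given by their counts beside these shares and were not tested, since the lists were chosen with results of these data known.

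Replication-dependent histones had more promoters without DPF3a than with it. Of 74 genes 10 (13.5%) had a site without DPF3a and 2 (2.70%) a site with it, although 50 had some SMAD4 promoter peak. All 10 lie on chromosome 6. H2BC6 had the highest rank with a SMAD4 fold enrichment of 7.13 (61 reads) and a p300 fold enrichment of 5.73 (24 reads), 34 bp upstream of its start and 15559 bp from the nearest DPF3a peak. H3C1 had 5.74 (68 reads) and 4.75, H4C9 had 4.78 (31 reads) and 4.84, and H3C10 had 4.85 (48 reads) and 4.67. H3C4, H3C8, H3C11, H2BC10 and the pair H2AC7 and H2BC7, which share 1 site between them, had SMAD4 fold enrichments from 3.57 to 3.94. Histone genes are close copies of each other, and the authors dropped reads of low mapping quality. Reads of any of the 3 factors may be missing there or placed with less certainty, which was not tested.

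Genes of transcription itself were found too. Of 40 subunits of RNA polymerase II and mediator, 8 (20%) had a site without DPF3a and 13 (32.5%) one with it. All 8 were mediator subunits, MED1, MED4, MED9, MED18, MED19, MED21, MED24 and MED27. MED21 had a SMAD4 fold enrichment of 10.3 (55 reads) and a p300 fold enrichment of 5.85, and MED4 had 7.80 (31 reads) and 6.29. Of 55 general transcription factors 4 (7.27%) had a site without DPF3a, near the share of all genes, and 14 (25.5%) one with it. Among the 4 were GTF2B, GTF2E1 (8.11, 59 reads) and GTF2IRD2B, a member of a family of close copies, at 19.7 (63 reads). C2H2 zinc finger ZNF genes, many of which silence transposable elements, had 66 of 515 (12.8%), compared with 180 (35%) with DPF3a. ZNF549 on chromosome 19 stood highest, with 11.5 (53 reads) and 6.10 (25 reads), followed by ZNF529 (10.1), ZNF280C on chromosome X (9.11) and ZNF223 (10.6).

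In the lists of translation and protein turnover given next, the share with DPF3a was also above that of all genes. Cytosolic ribosomal proteins had 14 of 86 (16.3%) without and 27 (31.4%) with DPF3a. RPS3A had a SMAD4 fold enrichment of 8.89 (52 reads), RPL11 had 9.26 (74 reads), RPL15 had 6.90 (87 reads) and RPL6 had 7.98 (55 reads). Mitochondrial ribosomal proteins had 8 of 78 (10.3%), among them MRPL50 (8.43) and MRPS30 (7.63), compared with 47 (60.3%) with DPF3a. Of 35 aminoacyl-tRNA synthetases 4 (11.4%) had a site without DPF3a and 20 (57.1%) one with it. LARS2, which charges leucine tRNA in mitochondria, had the highest rank of all list genes after GTF2B and DNAJC24. Its site had a SMAD4 fold enrichment of 11.1 (67 reads), a p300 fold enrichment of 8.91 (45 reads) and no DPF3a peak for 120134 bp. The proteasome had 6 of 50 (12%) without and 23 (46%) with DPF3a, and ubiquitin-conjugating enzymes had 6 of 37 (16.2%) and 19 (51.4%). Heat shock proteins with DNAJ partners had 9 of 73 (12.3%) without and 37 (50.7%) with DPF3a. Translation initiation factors had 4 of 56 (7.14%) without DPF3a, near the share of all genes, and 25 (44.6%) with it.

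The respiratory chain and ATP synthase had 13 of 94 (13.8%) without and 44 (46.8%) with DPF3a. NDUFC1 had a SMAD4 fold enrichment of 8.74 (64 reads) and ATP5MG had 7.0 (60 reads). DNA replication had 6 of 43 (14%), compared with 26 (60.5%) with DPF3a. MCM3, a subunit of the replicative helicase, had 8.95 (67 reads), PCNA, the sliding clamp, had 8.29 (88 reads), POLD3 had 9.97 (62 reads), and ORC1 shared its site with PRPF38A, at 6.49 (59 reads). The spliceosome core had 6 of 50 (12%), compared with 17 (34%) with DPF3a, and PRPF39 stood at 10.5 and SNRPB2 at 10.6. The nuclear pore had 2 of 23 (8.70%), autophagy genes 2 of 31 (6.45%), and cyclins and CDKs 3 of 46 (6.52%), where CDK2 had 7.79 (40 reads). Sites with DPF3a were at 12, 14 and 23 genes of these lists, respectively.

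Genes closest to the question of the study were looked at in lists of their own. The TGF-β and BMP pathway had 4 of 40 genes (10%), compared with 16 of them with DPF3a. SMAD1, the BMP-regulated SMAD, had a SMAD4 fold enrichment of 6.30 (29 reads) and a p300 fold enrichment of 4.97 (17 reads), 33 bp from its start. BMP2, a BMP ligand, had 7.10 (79 reads) and 4.24 (24 reads) at its promoter besides its exon site. ID1, a target of BMP signals, had 2.92 (132 reads) and 2.86 (51 reads), with a DPF3a peak 1772 bp away. Hypoxia factors and targets had 1 of 27 (3.70%), EGLN3, an oxygen sensor that marks HIF for decay, at 10.3 (84 reads) and 5.35 (22 reads), compared with 13 (48.1%) with DPF3a. Cell movement genes that the study named had 1 of 15, MMP16 at 4.09 (41 reads), whose promoter also held a site with DPF3a and had a DPF3a peak 490 bp from the site. SWI/SNF subunits had 0 of 27 compared with 10 with DPF3a, and AP-1 subunits had 1 of 11 compared with 2. Histone acetyltransferases and deacetylases had 1 of 20, HDAC3, at 7.29 (75 reads), compared with 5 with DPF3a.

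Chromosomes differed in the share of SMAD4-p300 sites that lacked DPF3a. On chromosome X it was 41.9% (62 of 148, 34.2 to 49.9%) and on chromosome 14 it was 35.8% (54 of 151, 28.6 to 43.7%), compared with 8.66 to 22% on the other autosomes. Among promoter sites the shares were 48.0% on X and 41.1% on chromosome 14, and among distal sites 3 of 25 and 1 of 22 sites. Chromosomes 14 and X were singled out after their values were seen, so no test is given. The median local background of DPF3a peaks was 1.71 reads on X and 1.90 on chromosome 14, below the 2.24 to 3.42 reads of the other autosomes, while on chromosome 14 that of SMAD4 peaks was 4.52 reads, within the range of 3.23 to 6.50 of the other autosomes. The part of local DPF3a read depth in these shares was not tested. Without both chromosomes the promoter share of sites without DPF3a stood 18.9 points above that of sites with it (14.7 to 22.7), and the AP-1 difference at distal sites was -19.1 points (-22.3 to -12.6).

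**Figure D5:**
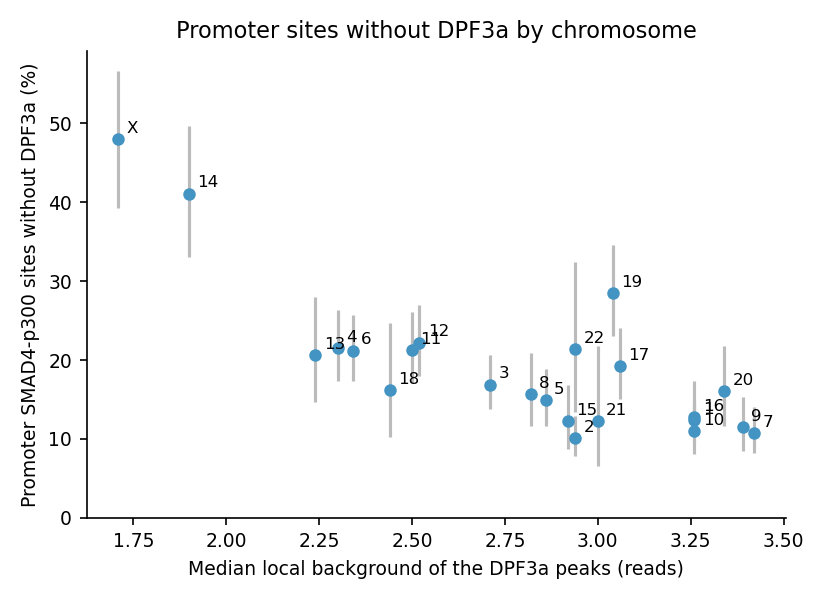
Percent of promoter SMAD4-p300 sites without DPF3a against the median local background of DPF3a peaks in reads, 1 point per chromosome except Y, with 95% Wilson intervals of counting error as whiskers. Chromosomes X (48.0% at 1.71 reads) and 14 (41.1% at 1.90 reads) lie apart at the upper left.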

How the data were processed

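ChIP-seq of HA-DPF3a, SMAD4 and p300 was carried out in 786-O cells with 2 libraries per factor, and samples were grouped by the factor in their titles. Per the methods and the labels, the authors trimmed reads with cutadapt, mapped them to hg38 with Bowtie2 2.3.5.1, dropped duplicates (Picard), mitochondrial reads and reads of low mapping quality, and called peaks with MACS2 2.2.5. Each deposited list holds both replicates of a factor, how they were joined is not given in the sources used here, and no input library is named. The authors' deposited score is the whole part of 10 times −log10 q, and scores over 50 were kept. The authors' fold enrichment relates summit reads to local background, with 1 added to each. The authors' −log10 p fixes, together with that fold, the summit height in reads and the background, which were computed here. The depth in M reads rests on an assumed fragment length of 200 bp and the caller's human genome size.

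Values were used within a list. Overlaps (checked against bedtools 2.31.1), transcript starts of GENCODE 44, GC and CpG content and exact motif letters on both strands were computed with Python 3.11.15 and pysam 0.24.0. The search for AP-1, CTCF and YY1 letters, the summit height and the difference interval were tried on simulated data. The assignment to transcript starts, GC and CpG content and the other motifs had no such test. Shares have 95% Wilson intervals and differences Newcombe intervals at an error level of 0.1%. The intervals cover counting error only, since sites are no replicates and no test over samples was possible. Sequences are from hg38. The genes named are the 10 promoter and 10 distal sites with the highest product of percentile ranks, over 20000 bp from an assembly gap. Also named are the 4 genes of highest product in each list, the members of short lists and the sites with a motif of interest. Sequences are shown for some of these sites. The AP-1 and CTCF windows shown hold no untranslated region, while the YY1 windows of 29 bases do. Members, lists and motifs were chosen with earlier results of these data known. Some genes and sequences that the rule names are not reported here. No column was left unmapped.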

Additional observations from a re-analysis of the deposited data

How the results depend on the processing

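Of 72 alternatives for the counts and shares, 63 kept the direction and the call, or a count within 1.5 times. The higher promoter share held in 13 of 13 alternatives and the lower AP-1 share at distal sites in 15 of 16. With scores over 100 in the SMAD4 and p300 lists there were 237 sites and 235 genes, and the AP-1 difference of -16.0 points rested on 25 distal sites, too few for its interval (-22.0 to 15.7) to leave out 0. Where DPF3a peaks with less than 0.5 of both peaks in common were also allowed, there were 2218 sites and 2035 genes. The difference in CpG-rich share at promoter sites, 1.85 points with an interval that holds 0, was 4.73 points with promoters of 2500 bp and 5.72 points within the quartiles of SMAD4 height, both leaving out 0, and it reversed to -6.24 points with a CpG ratio of at least 0.75. The cause was not tested. Around the p300 summit 1 of the 64 motif differences left out 0 in place of 4. There AP-1 at promoter sites (-1.15 points), CTCF (1.08) and the TEAD core (-3.53) held 0. The TEAD core difference also held 0 within the quartiles of SMAD4 height (-4.79), at sites that are not CpG-rich (-6.90) and without coding exons (-7.10), and the CTCF difference within the quartiles (2.68). The alternatives on SMAD4 height, CpG-poor sites, canonical starts for coding exons, and chromosomes 14 and X were chosen after the data were seen.

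No paired analysis was possible because the 2 libraries of a factor went into a single list. For the same reason no replicate could be left out. The DPF3a list had a depth of about 15.8 M reads, compared with 30.4 M for SMAD4 and 27.6 M for p300. So a site called without DPF3a may hold DPF3a reads under the authors' threshold. The p300 peaks of these sites were low as well, with a median height of 22 to 24 reads.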
